A study of Mus musculus with 12 samples.

Results

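CD8 T cells can be stimulated through the T cell receptor (TCR) or through a cytokine, and the comparison described here set the 3 libraries of splenic CD8 T cells cultured with interferon gamma (IFNγ) directly against the 3 libraries cultured with an antibody to CD3 (αCD3). These are 6 of the 12 libraries of the series and were chosen by their labelled treatment alone. The genes described are those that differed between the 2 stimuli, across all 12122 genes tested of 20778 in the deposited table. The 3 untreated libraries (Naïve) are given beside them, to show which stimulus moved a gene from its untreated level.

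The cells came from C57BL/6 mice in every group, and the labels put their age at 6 weeks, while the methods of the study name older animals. CD8 T cells were collected from the spleen with magnetic beads and cultured for 6 hours with IFNγ (70 ng/ml), with αCD3 (1 µg/ml in one field of the labels, mg/ml in another, so the unit is uncertain) or untreated. No genetic change and no second stimulus is given in the labels. Nothing states that replicates were separate animals or cultures, so p-values measure the spread between these libraries, which may be technical. Total counts were 10586851 to 12195895 in the IFNγ libraries and 12305423 to 27610175 in the αCD3 libraries, the highest being αCD3 replicate 1. Fewer cells of a type and less RNA per cell cannot be told apart in such bulk libraries.

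IFNγ binds a receptor built of Ifngr1 and Ifngr2, and the JAK kinases on it activate STAT dimers, which enter the nucleus and bind GAS sites of target genes. A second wave follows through the factor Irf1 and includes large GTPases, antigen presentation and chemokine genes. CD3 carries the signal of the TCR through Lck and Zap70 to calcium, MAP kinase and NF-κB, which induce immediate early factors such as Nr4a1 and then Myc-driven growth, while genes of the resting state are switched off.

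The labelled cell type was first compared with marker genes. CD8 T cell markers were present in all libraries, with Cd8b1, the CD8 beta chain, at 332, 383 and 379 CPM (counts divided by the TMM-scaled size of their library) with IFNγ and 325, 414 and 413 with αCD3. B cell markers were abundant as well. On the scale of CPM per kilobase of transcript, the B cell receptor component Cd79a stood at 649, 558 and 569 with IFNγ and 495, 416 and 406 with αCD3, above the levels of Cd8b1 on that scale (224, 258 and 255, and 219, 279 and 279). The summed level of all 12 B cell markers was 2870 to 3020 CPM with IFNγ, 2460 to 2880 with αCD3 and 3510 to 3840 in Naïve libraries. The libraries therefore held RNA of B cells beside that of CD8 T cells, and no marker of any of the 10 cell type lists was at 0 in all 9 libraries.

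Values of other marker lists are given here and beside the results they touch, and their counts are to be read against all 12122 tested genes. Of these, 15.8% were higher and 21.4% lower with IFNγ, and 6020 differed in either direction when the replicate number was a block. Of 7 pan T cell markers in the table, 6 were lower with IFNγ, and their sum was 766 to 953 CPM with IFNγ, 1260 to 1360 with αCD3 and 876 to 1020 in Naïve. Of 14 myeloid markers, 3 were higher with IFNγ and none was lower, 8 were higher when the replicate number was a block, and the number higher went from 1 to 5 as single libraries were left out (1 without αCD3 replicate 1 or 2 or IFNγ replicate 2 or 3, 5 without Naïve replicate 1 or IFNγ replicate 1). Their sum was 1370, 2330 and 2260 CPM with IFNγ, 767, 1490 and 1420 with αCD3 and 832, 1450 and 1440 in Naïve, with replicate 1 the lowest in each group. Mpeg1 and Cybb held most of the sum with IFNγ and with αCD3 (8916, 12486 and 11119, and 3747, 6474 and 5450 counts with IFNγ). Csf1r, another member, was at 13.7, 27.5 and 33.1 CPM per kilobase with IFNγ, 15.8, 18.9 and 27.2 with αCD3 and 24.5, 55.1 and 61.1 in Naïve. The 3 called were C1qa, C1qb and C1qc, chains of complement C1q made by macrophages, all chosen for naming after their values were seen. The complement chain C1qc was at 11.7, 20.4 and 21.7 CPM with IFNγ and 5.22, 8.36 and 9.75 with αCD3. Erythroid markers summed to 571, 4120 and 2140 CPM with IFNγ and 406, 1580 and 1300 with αCD3, and none was called without the block while 5 were with it. Shifts in the share of cell types were not measured, and their part in the results below was not tested.

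Promoters of genes on the IFNγ side are shown because 2 motifs read by interferon-activated factors lie in them. The sequences are from RefSeq (GRCm38.p6) and run from 250 bases before to 50 bases after a gene's start, 5′ to 3′ on the strand of the gene. Capitals mark the GAS motif (TTCNNNGAA, bound by STAT dimers) and the core of the interferon response element (GAAANNGAA or its reverse complement, bound by IRF proteins), and in Utp20, a ribosome biogenesis gene, they mark the E-box CACGTG, which Myc binds.
Gbp2, chr3:142620413-142620712, plus strand: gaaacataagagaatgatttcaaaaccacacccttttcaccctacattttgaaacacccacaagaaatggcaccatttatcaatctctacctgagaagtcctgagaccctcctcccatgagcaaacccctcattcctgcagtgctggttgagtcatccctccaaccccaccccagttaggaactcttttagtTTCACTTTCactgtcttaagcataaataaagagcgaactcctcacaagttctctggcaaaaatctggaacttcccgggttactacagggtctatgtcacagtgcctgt
Gbp7, chr3:142530086-142530385, plus strand: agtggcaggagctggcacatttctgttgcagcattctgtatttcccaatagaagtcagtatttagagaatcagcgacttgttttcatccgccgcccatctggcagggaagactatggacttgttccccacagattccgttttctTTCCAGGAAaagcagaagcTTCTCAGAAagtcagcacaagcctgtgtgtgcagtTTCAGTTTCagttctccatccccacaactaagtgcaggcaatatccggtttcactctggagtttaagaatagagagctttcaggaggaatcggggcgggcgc
Igtp, chr11:58199306-58199605, plus strand: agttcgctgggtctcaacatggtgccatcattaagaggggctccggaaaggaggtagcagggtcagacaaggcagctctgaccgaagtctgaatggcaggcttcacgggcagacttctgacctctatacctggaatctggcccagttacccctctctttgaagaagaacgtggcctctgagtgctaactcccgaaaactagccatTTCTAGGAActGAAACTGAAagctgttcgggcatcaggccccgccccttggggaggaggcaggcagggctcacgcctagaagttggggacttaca
Irf1, chr11:53769764-53770063, plus strand: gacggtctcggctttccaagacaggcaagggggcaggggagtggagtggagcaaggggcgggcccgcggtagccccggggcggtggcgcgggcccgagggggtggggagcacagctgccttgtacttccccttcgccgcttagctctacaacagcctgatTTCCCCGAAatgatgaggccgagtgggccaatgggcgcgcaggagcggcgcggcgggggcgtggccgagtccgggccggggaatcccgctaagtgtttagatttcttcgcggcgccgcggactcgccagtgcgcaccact
Utp20, chr10:88826765-88827064, minus strand: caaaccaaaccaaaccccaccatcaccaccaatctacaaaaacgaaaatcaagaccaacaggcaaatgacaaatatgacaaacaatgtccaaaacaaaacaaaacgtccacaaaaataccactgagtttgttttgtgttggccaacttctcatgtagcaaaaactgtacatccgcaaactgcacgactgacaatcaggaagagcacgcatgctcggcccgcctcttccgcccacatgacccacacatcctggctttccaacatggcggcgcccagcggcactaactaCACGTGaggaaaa
In Gbp2 the only match to the motifs in capitals was an IRF core 58 bases before the start, and the promoter also held 1 match to the AP-1 motif TGANTCA, which is in 7.81% of all promoters. Gbp7 held 2 GAS matches, 106 and 87 bases before the start, and an IRF core 52 bases before it. In Igtp the GAS match began 45 and the IRF core 34 bases before the start, and in the Irf1 promoter shown a GAS match began 90 bases before the start. A second Irf1 promoter in the table (chr11:53770223-53770522) held none of the motifs searched. No match in capitals overlapped another.

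Over both GTPase families described below, 10 of 17 tested genes had a promoter in the table, and their 11 promoters held the IRF core in 9 cases and GAS in 5. Of all 32851 promoters of that length, 8.56% held the IRF core and 8.3% held GAS, and of the promoters of tested genes 7.45% and 7.0% did. The E-box was in 5 of 21 promoters of the Myc and ribosome biogenesis list (23.8%), in 9.69% of those of tested genes and in 7.15% of all. These are letter matches on both strands and no measure of binding.

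IFNγ and αCD3 libraries separated. Of the 12122 tested genes, 4514 (37.2%) had an adjusted p under 0.05 and are referred to as called, 1918 (15.8%) higher and 2596 (21.4%) lower with IFNγ. Most differences were small, with a median absolute log2 fold change of 0.58 among the called genes, and 821 were called and at least 2-fold apart (370 higher and 451 lower). The 3 and 3 libraries did not overlap for 5867 genes (48.4%). The median over all tested genes was 0.03 on the log2 scale. Against Naïve, 12.4% of the tested genes were called for IFNγ and 38.6% for αCD3, and both of these comparisons use the same Naïve libraries. All log2 fold changes below are IFNγ over αCD3 unless Naïve is named.

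**Figure D1:**
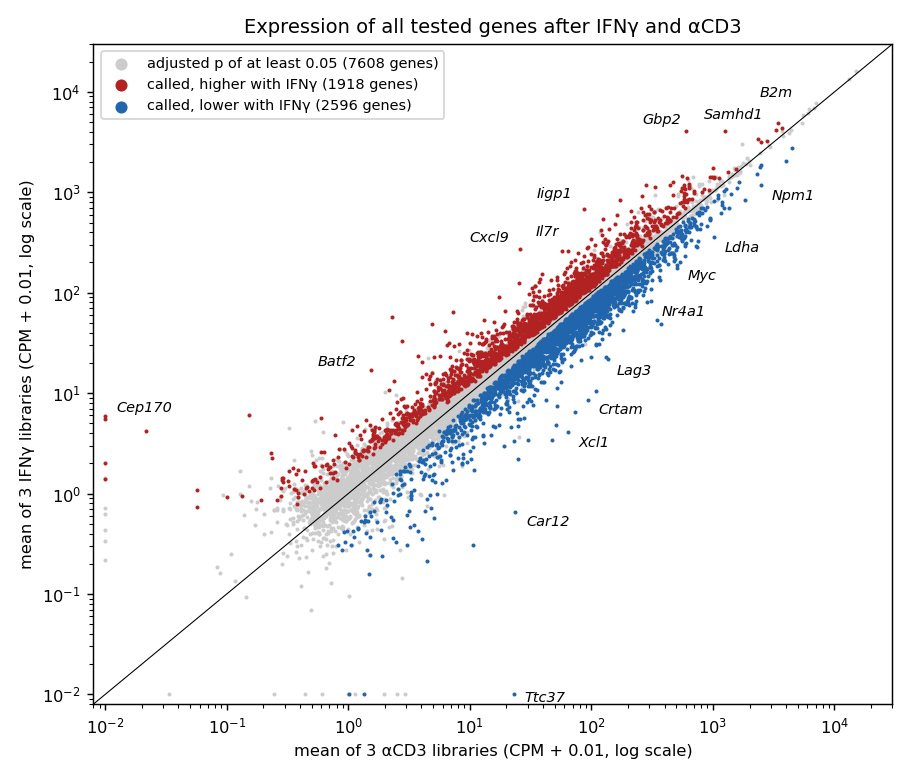
Mean expression of the 12122 tested genes in the 3 IFNγ libraries (vertical axis) against the 3 αCD3 libraries (horizontal axis), both in CPM with 0.01 added and on a log scale, with genes called higher with IFNγ in red, lower in blue and the line of equality in black. The 1918 red and 2596 blue points lie mostly close to the line, with Gbp2, Iigp1 and Cxcl9 far above it and Xcl1, Car12 and Ttc37 far below it.

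The genes with the largest fold on the IFNγ side were mostly interferon targets, and those on the αCD3 side were mostly genes of T cell activation. Gbp2, a GTPase that attacks the vacuoles of intracellular pathogens, was at 3860, 4180 and 4150 CPM with IFNγ and 382, 818 and 594 with αCD3, against 208, 244 and 265 in Naïve cells. All IFNγ libraries were far above all αCD3 libraries, and the log2 fold change was 2.77 ± 0.38 (SE, adjusted p = 0.00029). Iigp1, a GTPase of the immunity-related family, was at 549, 809 and 711 CPM with IFNγ and 33.1, 140 and 85.7 with αCD3 (log2 fold change 3.01 ± 0.56, adjusted p = 0.00189). Both were called above Naïve with αCD3 too, at log2 fold changes of 1.32 and 1.77 (adjusted p = 0.0162 and 0.0272).

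The chemokine Cxcl9, which draws T cells through Cxcr3, was at 200, 307 and 301 CPM with IFNγ and 6.45, 49.2 and 22.4 with αCD3 (log2 fold change 3.41 ± 0.75, adjusted p = 0.00507). Batf2, an AP-1 family factor induced by interferon, was at 14.9, 18 and 18.5 CPM with IFNγ and 0.458, 2.23 and 1.93 with αCD3. Clic5, a chloride channel family protein, was at 30.7, 59.9 and 57.3 CPM with IFNγ and 1.27, 8.6 and 4.83 with αCD3. For these 3 genes the Naïve libraries were lower than those of both stimuli, at no more than 4.07 CPM.

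A different pattern was seen for Slc6a19, an amino acid transporter, and Cyp2s1, a cytochrome P450, whose IFNγ levels were close to Naïve while αCD3 was low. Slc6a19 was at 41.3, 28.7 and 29.0 CPM with IFNγ, 33.7, 19.3 and 19.5 in Naïve and 4.97, 0.993 and 2.26 with αCD3. Cyp2s1 was at 7.13, 2.92 and 6.92 CPM with IFNγ, 5.75, 2.66 and 3.63 in Naïve and 0.846, 0.496 and 0.403 with αCD3. Both fell below Naïve with αCD3 (log2 fold changes over Naïve of -3.02 and -2.69, adjusted p = 0.000725 and 0.00231).

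A few rows were at or near 0 in all libraries of one stimulus. The centrosomal gene Cep170 was at 7.69, 5.04 and 5.16 CPM with IFNγ and at 0 with αCD3, at least 30-fold higher against a floor of 3 counts per library. Its call was lost with the replicate block (adjusted p = 0.0553) and without any single IFNγ or αCD3 library (adjusted p of 0.0522 to 0.0678), and with no count filter (0.0639). Cep57l1, also named for the centrosome, was at 6.72, 6.28 and 5.26 CPM with IFNγ and 0.423, 0 and 0 with αCD3. Ttc37, a subunit of the SKI complex of RNA decay, was at 0 in all IFNγ libraries and at 17.1, 31.8 and 19.7 CPM with αCD3, at least 85.7-fold lower with IFNγ. Naïve libraries were at 10.7, 20.1 and 11.4 CPM for it. Whether each row sums all transcripts of a gene is not given in the sources used here, and these 3 genes have 10 to 15 annotated transcripts each.

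On the αCD3 side, Xcl1, the chemokine lymphotactin of activated CD8 T cells, was at 59.7, 71.6 and 60.3 CPM with αCD3 and 2.83, 4.87 and 4.48 with IFNγ (log2 fold change -3.98 ± 0.29, adjusted p = 6.95e-06). Spry1, a feedback inhibitor of receptor signalling, was at 48.7, 50.3 and 43.4 CPM with αCD3 and 3.4, 3.1 and 3.7 with IFNγ (-3.80 ± 0.18, adjusted p = 1.3e-06). Crtam, an adhesion receptor of activated CD8 T cells, was at 81.7, 110 and 88.0 CPM with αCD3 and 10.4, 6.55 and 8.86 with IFNγ. None of these 3 was called between IFNγ and Naïve (adjusted p of 0.81 to 0.983), and all rose over Naïve with αCD3, by 3.56 to 4.07 on the log2 scale.

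The same held for most other genes of the largest negative folds. Car12, a carbonic anhydrase, was at 16.4, 27.8 and 26.6 CPM with αCD3 and 0.567, 0.708 and 0.682 with IFNγ. Npas4, an activity-induced transcription factor known from neurons, was at 11.1, 10.2 and 10.5 CPM with αCD3 and 0.81, 0.0885 and 0 with IFNγ. Rgs16, a regulator of G protein signalling, was at 56.8, 54.4 and 41.0 CPM with αCD3 and 5.26, 3.8 and 5.45 with IFNγ. Itm2a, a membrane protein induced by T cell activation, was at 144, 92.5 and 93.4 CPM with αCD3 and 12.4, 10.2 and 9.06 with IFNγ. Nefh, a neurofilament gene, Serpine2, a protease inhibitor, and Samd4, an RNA-binding protein, had log2 fold changes of -3.50 ± 0.20, -3.48 ± 0.50 and -3.15 ± 0.43. None of these 7 genes was called between IFNγ and Naïve, the smallest adjusted p being 0.145 for Samd4, and all were called between αCD3 and Naïve.

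By the difference in mean CPM, Gbp2 led the IFNγ side, followed by genes of nucleotide metabolism and antigen presentation. Samhd1, a dNTP hydrolase that restricts retroviruses, was at 3370, 4550 and 4230 CPM with IFNγ and 737, 1710 and 1350 with αCD3. Tgtp1, an immunity-related GTPase, was at 1150, 1220 and 1180 CPM with IFNγ and 166, 376 and 296 with αCD3, but only 15.6% of the 31-base words of its transcripts were unique to it in the annotation, so its share with Tgtp2 is uncertain. Tpt1, the translationally controlled tumor protein, differed little (3990, 4360 and 4310 against 3610, 3120 and 3180 CPM). On the αCD3 side the largest differences were for the chaperones Hsp90ab1 and Hspa8, the nucleolar protein Npm1, the translation factor Eif5a, the chromatin-linked protein Ptma and the glycolytic enzyme Ldha, with log2 fold changes of -0.60 (Ptma) to -1.52 (Ldha).

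Members of 34 gene lists were then counted. They are described from the receptor to the target genes, first for the interferon side and then for the TCR side. A list's share of calls is to be read against 15.8% higher and 21.4% lower over all tested genes. Counts with the replicate block or with libraries left out are to be read against the number of genes called under that setting, given in the last section.

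**Figure D2:**
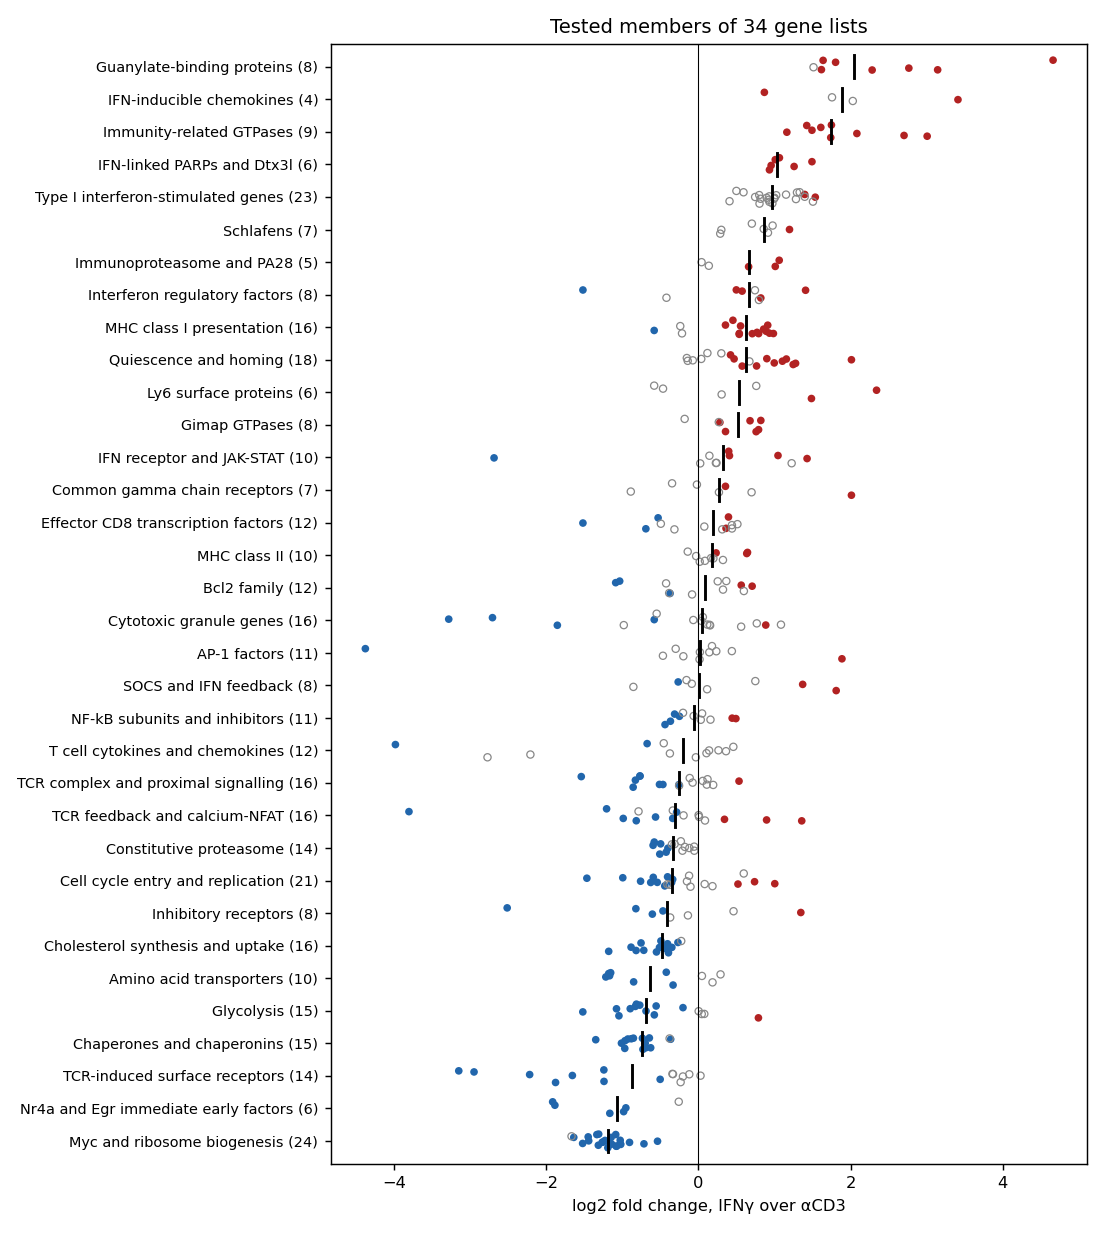
Log2 fold change (IFNγ over αCD3, horizontal axis) of each tested member of 34 gene lists, with the number of tested members in brackets. Filled points are called genes (red higher, blue lower with IFNγ), open points are not called, and black bars are medians, from 2.04 for guanylate-binding proteins down to -1.18 for Myc and ribosome biogenesis.

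Of 10 receptor and JAK-STAT genes, 4 were higher and 1 was lower with IFNγ (median log2 fold change 0.32). The largest well measured difference was the IFNγ receptor chain Ifngr1, at 701, 693 and 682 CPM with IFNγ, 675, 666 and 658 in Naïve and 297, 223 and 250 with αCD3. Its log2 fold change was 1.43 ± 0.09 (adjusted p = 3.65e-06), and it fell by 1.37 on the log2 scale from Naïve with αCD3 (adjusted p = 5.76e-06). Between IFNγ and Naïve it was not called (log2 fold change over Naïve 0.05, adjusted p = 0.759). The other chain, Ifngr2, was below Naïve with both stimuli, at 98.9, 93.9 and 99.0 CPM with IFNγ, 109, 77.4 and 100 with αCD3 and 151 to 153 in Naïve. The type I receptor chains Ifnar1 and Ifnar2 were higher with IFNγ by 0.40 and 0.41, and Stat2 by 1.05 ± 0.30 (adjusted p = 0.019), a call that was lost without IFNγ replicate 2 or 3 (0.0615 and 0.0533) and with the 6 compared libraries alone (0.0597).

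The kinases Jak1 and Jak2 and the factor Stat3 were not called, with log2 fold changes of 0.15 to 0.24. The kinase Tyk2, at low counts, was lower with IFNγ (adjusted p = 0.0406), a call that was lost without any IFNγ or αCD3 library (adjusted p of 0.0569 to 0.0818), without Naïve replicate 2 or 3 (0.0561 and 0.0542) and without LPS replicate 3 (0.0511), as well as with no count filter (0.072) and with limma-voom (0.0606).

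Interferon regulatory factors followed different stimuli. Irf1, the main relay of the IFNγ response, was at 1290, 1100 and 1140 CPM with IFNγ, 339, 546 and 447 with αCD3 and 239, 267 and 310 in Naïve (log2 fold change 1.41 ± 0.31, adjusted p = 0.00534). Irf2, Irf5 and Irf9 were higher as well, by 0.82, 0.58 and 0.50. Irf4, which scales with the strength of TCR signalling, went the other way, at 193, 164 and 178 CPM with IFNγ, 514, 500 and 516 with αCD3 and 158 to 159 in Naïve (-1.52 ± 0.10, adjusted p = 4.42e-06). Irf7 and Irf8 were not called, at 0.80 ± 0.50 and 0.74 ± 0.32.

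Of 8 genes of interferon feedback 2 were higher and 1 was lower with IFNγ (median 0.01), 3 being lower with the replicate block. The lower gene was Ptpn6, the phosphatase SHP-1, at 344, 407 and 412 CPM with IFNγ and 454, 476 and 468 with αCD3 (adjusted p = 0.0441), and its call was lost under 10 of 19 alternatives (0.0513 to 0.128). Socs1, which blocks JAK kinases, was at 331, 308 and 399 CPM with IFNγ and 43.4, 141 and 113 with αCD3 (log2 fold change 1.81 ± 0.52, adjusted p = 0.0203), with adjusted p of 0.0503 and 0.0538 without αCD3 replicate 3 or IFNγ replicate 3. Socs3, the inhibitor of STAT3 signalling, was at 312, 305 and 341 CPM with IFNγ, 96.1, 125 and 149 with αCD3 and 207, 308 and 360 in Naïve. Its difference (1.37 ± 0.29, adjusted p = 0.0039) therefore lay on the αCD3 side, where it fell by 1.24 from Naïve on the log2 scale (adjusted p = 0.00702).

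Both families of interferon-inducible GTPases were higher with IFNγ. Of 8 tested guanylate-binding proteins, 7 were called higher and none lower (median log2 fold change 2.04), and of 9 tested immunity-related GTPases, 9 were called higher (median 1.74). These counts were the same without any single library and with the replicate block. The 8 guanylate-binding protein genes lie in 2 clusters, 4 on chromosome 3 (142530342 to 142638008, GRCm38) and 4 on chromosome 5 (105014150 to 105346472), and genes of both clusters were called. Gbp7 was at 803, 890 and 838 CPM with IFNγ and 98.2, 240 and 183 with αCD3 (2.28 ± 0.32), and Gbp3 was at 431, 417 and 418 CPM against 92.5, 148 and 123 (1.80 ± 0.22). Gbp4 was not called, at 34.3, 98.2 and 107 CPM against 6.95, 57.3 and 21.3 (adjusted p = 0.196).

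Gbp11 and Gbp8, at the ends of the chromosome 5 cluster, had the largest folds of the family in this fit. Gbp11 was at 33.9, 68.6 and 68.2 CPM with IFNγ, 5.61, 10.2 and 15.7 in Naïve and 1.97, 1.65 and 3.22 with αCD3, so that αCD3 libraries were below Naïve (log2 fold change over Naïve -2.22, adjusted p = 0.0111). Gbp8 was at 58.5, 74.7 and 58.8 CPM with IFNγ, 6.95, 5.71 and 9.1 with αCD3 and 7.26 to 10.8 in Naïve, and was not called between αCD3 and Naïve (log2 fold change over Naïve -0.32, adjusted p = 0.437). In the annotation 65.7% and 68.9% of their 31-base words were unique to them, so their counts can be shared with other members.

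Among the immunity-related GTPases, Igtp was at 1040, 1170 and 1170 CPM with IFNγ and 191, 445 and 374 with αCD3 (1.75 ± 0.36, adjusted p = 0.00367), and Irgm1, the regulatory member of the family, was at 1230, 1270 and 1280 against 231, 665 and 514 (1.42 ± 0.39, adjusted p = 0.0147). Ifi47, the member with the smallest fold, was at 1220, 1470 and 1460 against 344, 809 and 700. The IFNγ libraries were tight while the αCD3 libraries spread over more than 2-fold, with αCD3 replicate 1 the lowest for each of these 3. Over Naïve the medians of the family were 2.74 for IFNγ and 1.16 for αCD3.

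**Figure D3:**
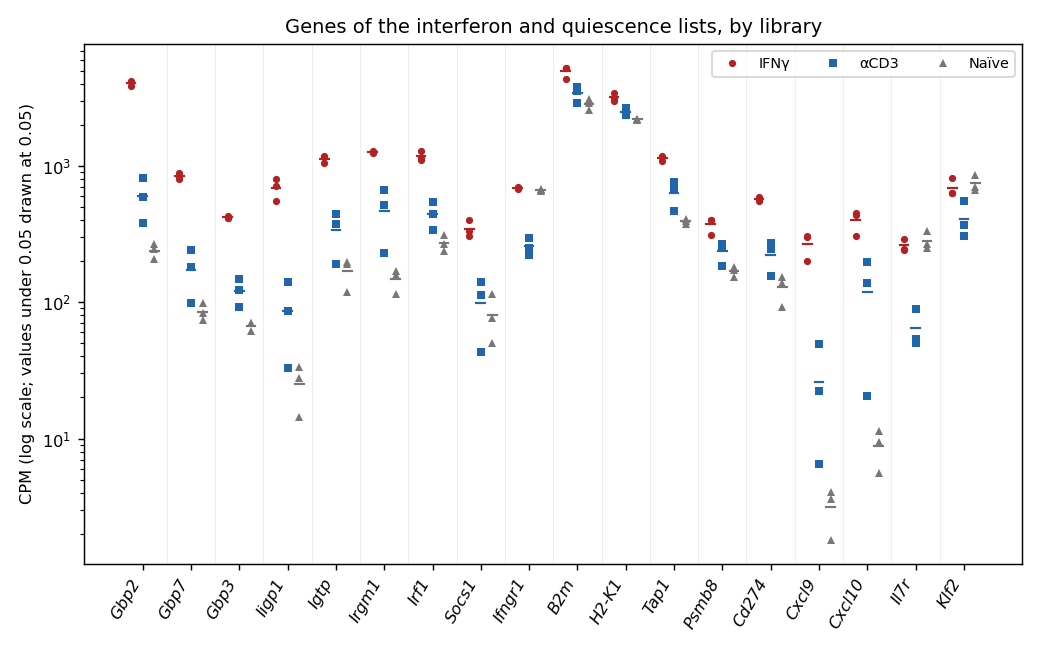
Expression in CPM (vertical axis, log scale) of 18 genes of the interferon and quiescence lists in the 3 IFNγ (red circles), 3 αCD3 (blue squares) and 3 Naïve (grey triangles) libraries, with short lines for group means. Gbp2 lies at 3860 to 4180 with IFNγ and at 382 to 818 with αCD3, and for Ifngr1, Il7r and Klf2 the IFNγ points lie beside the Naïve points while αCD3 is lower.

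Antigen presentation genes were higher with IFNγ by smaller folds. Of 16 tested genes of MHC class I presentation, 13 were called higher and 1 lower (median log2 fold change 0.63), 10 of the 16 lying on chromosome 17. B2m, the light chain of class I, was at 4360, 5240 and 5270 CPM with IFNγ and 2880, 3810 and 3550 with αCD3 (0.54 ± 0.15, adjusted p = 0.0142). H2-K1, a classical heavy chain, was at 2980, 3450 and 3140 CPM against 2360, 2670 and 2450 (0.36 ± 0.07, adjusted p = 0.00277). The peptide transporter chains Tap1 and Tap2 were higher by 0.86 ± 0.19 and 0.99 ± 0.11, and the loading factor Tapbp by 0.91 ± 0.16. Counts of heavy chain genes can be shared between them, with 47.0% of 31-base words unique for H2-Q4 and 73.1% for H2-D1. The member that was lower was Calr, the chaperone calreticulin, at 783, 769 and 844 CPM with IFNγ and 1070, 1240 and 1280 with αCD3. With the replicate block 3 members were lower.

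The 3 catalytic subunits of the immunoproteasome, Psmb8, Psmb9 and Psmb10, which change the peptides cut for class I, were higher by 0.66, 1.06 and 1.01 on the log2 scale. Psmb9 was at 192, 239 and 208 CPM with IFNγ and 76.6, 119 and 111 with αCD3. The activator subunits Psme1 and Psme2 were not called, at 0.14 ± 0.14 and 0.04 ± 0.15, and both stimuli had raised them above Naïve by 1.02 to 1.18 (largest adjusted p = 0.00103). Of 14 constitutive proteasome subunits, 6 were lower with IFNγ and none higher (median -0.33), 11 being lower with the replicate block. The subunit Psmb5, which Psmb8 replaces, was at 68.3, 81.7 and 82.2 CPM with IFNγ and 97.1, 115 and 118 with αCD3 (-0.51 ± 0.13, adjusted p = 0.00856).

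Class II genes, which B cells and myeloid cells express, differed little. Of 10 tested, 3 were higher with IFNγ (median 0.18), among them the invariant chain Cd74 at 4350, 4460 and 4320 CPM against 3930, 3630 and 3610. The Naïve libraries were above both, at 5180 to 5740 CPM. Their regulator Ciita was not called, at 0.20 ± 0.12. Of the 12 B cell markers 4 were higher and 1 was lower with IFNγ, and the part of B cells in the class II values was not tested. Without αCD3 replicate 2 or 3 or IFNγ replicate 3, 2 of the markers were higher, and none was lower without αCD3 replicate 1 or IFNγ replicate 2 or 3.

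The list of 23 type I interferon-stimulated genes, antiviral genes shared with the response to interferon alpha and beta, was positive throughout but seldom called. Its median log2 fold change was 0.97 and all 23 values were above 0, yet 2 were called higher, Zbp1 and Ifit3b. Both calls were lost with the 6 compared libraries alone (adjusted p = 0.0877 and 0.133) and with no count filter (0.0732 and 0.0918). Replicate 1 was the lowest library of both stimuli. The ubiquitin-like Isg15 was at 75.8, 302 and 251 CPM with IFNγ and 23.3, 194 and 142 with αCD3, and the groups overlapped (0.82 ± 0.69, adjusted p = 0.384). The antiviral GTPase Mx1 was at 89.3, 462 and 368 CPM against 31.8, 312 and 206. With the replicate number as a block 12 of the 23 were called higher, and without replicate 1 of all 4 groups, a choice made after the data were seen, 20 were. Over all genes these settings called 6020 and 5540 in either direction, against 4514 in the fit without them. As single libraries were left out the count was 0 (without αCD3 replicate 3 or IFNγ replicate 2 or 3) to 8 (without IFNγ replicate 1), 5 without αCD3 replicate 2 and 1 without any Naïve or LPS library. The myeloid sums given above, held mostly by Mpeg1 and Cybb with both stimuli, were also lowest in replicate 1. The part of myeloid cells here was not tested.

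All 6 interferon-linked PARP genes, with the ubiquitin ligase partner Dtx3l among them, were called higher (median 1.04). Dtx3l was at 545, 693 and 659 CPM with IFNγ and 164, 336 and 294 with αCD3 (1.26 ± 0.22, adjusted p = 0.00119). The calls of 4 of them were weak, since 2 of the 6 remained without IFNγ replicate 2 or without IFNγ replicate 3. Of 7 Schlafen genes, which restrain growth and viral translation, Slfn1 alone was called (1.19 ± 0.23), with 4 called under the block and 2 without αCD3 replicate 2 or IFNγ replicate 1. Of 6 Ly6 genes, Ly6a, known as Sca-1, was at 269, 352 and 279 CPM with IFNγ and 71.3, 137 and 114 with αCD3 (1.49 ± 0.34), and Ly6c1 was higher by 2.34 ± 0.49 at 7.45, 13.1 and 11.3 CPM against 1.23, 2.4 and 2.82.

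Besides Cxcl9, the chemokine Ccl5 was higher with IFNγ, at 100, 112 and 119 CPM with IFNγ, 53.0, 62.0 and 66.6 with αCD3 and 80.6 to 91.6 in Naïve. Cxcl10 and Cxcl11 did not overlap between the stimuli and were not called (adjusted p = 0.0748 and 0.0603), and with the replicate block all 4 chemokines of the list were called higher. Cxcl10 was at 309, 450 and 438 CPM with IFNγ, 20.4, 198 and 138 with αCD3 and 5.56 to 11.4 in Naïve. Of the 14 myeloid markers only the 3 C1q genes were higher with IFNγ in this fit, as given above, and the part of myeloid cells in the chemokine values was not tested.

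On the TCR side, 5 of 6 immediate early factors of the Nr4a and Egr families were lower with IFNγ and none was higher (median -1.07), with the same count without any single library. Nr4a1, the orphan receptor Nur77 used as a reporter of TCR signalling, was at 94.4, 68.1 and 84.6 CPM with IFNγ, 387, 273 and 272 with αCD3 and 128, 75.2 and 82.6 in Naïve (-1.91 ± 0.25, adjusted p = 0.000194). Nr4a2 was lower by a like amount (-1.88 ± 0.25), and Nr4a3 and Egr1 by less (-0.95 ± 0.15 and -0.98 ± 0.21). Egr2, which restrains T cell responses, was at 15.1, 15.7 and 15.1 CPM with IFNγ, 43.0, 27.6 and 31.7 with αCD3 and 19.4, 24.8 and 28.2 in Naïve, so that it fell below Naïve with IFNγ (log2 fold change over Naïve -0.65, adjusted p = 0.0319). Egr3 was low and not called, at 7.86, 9.91 and 9.35 CPM against 12, 10.4 and 9.91.

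AP-1 factors did not move as a group, with 1 of 11 higher, 1 lower and a median of 0.02. Jun was the gene that was higher, at 697, 529 and 568 CPM with IFNγ, 145, 188 and 152 with αCD3 and 133, 115 and 127 in Naïve (1.89 ± 0.27, adjusted p = 0.00038). IFNγ raised it by 2.25 over Naïve (adjusted p = 0.000843), and αCD3 libraries were not called against Naïve (0.37, adjusted p = 0.296). Fosl1 was the gene that was lower, at 0.324, 0 and 0.292 CPM with IFNγ and 5.22, 3.39 and 4.67 with αCD3 (adjusted p = 0.000473). Fos, Junb and Batf had log2 fold changes of 0.24, 0.18 and -0.30 and were not called. Without αCD3 replicate 1, 3 members were higher and 2 lower, and 2 were lower with the replicate block.

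Of 14 surface receptors induced by TCR signalling, 8 were lower with IFNγ and none higher (median -0.87). The costimulatory receptor Tnfrsf9 (4-1BB) was at 33.5, 53.5 and 58.9 CPM with IFNγ and 283, 452 and 390 with αCD3 (-2.95 ± 0.38), and Cd160 at 2.27, 3.8 and 4.09 against 29.7, 32.3 and 27.8 (-3.15 ± 0.21). Cd28, Icos and Slamf1 were lower by 1.66, 1.24 and 2.22 on the log2 scale, and none of them was called between IFNγ and Naïve (adjusted p of 0.635 to 0.955). Il2ra, the high-affinity chain of the IL-2 receptor, was at 120, 141 and 139 CPM with IFNγ, 198, 392 and 356 with αCD3 and 59.1 to 77.7 in Naïve. It was therefore above Naïve with both stimuli (log2 fold changes over Naïve of 0.93 and 2.17, adjusted p = 0.0469 and 0.000209).

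Cd69, an early activation marker widely used for TCR stimulation, did not separate the stimuli. It was at 322, 391 and 399 CPM with IFNγ, 288, 444 and 357 with αCD3 and 155, 132 and 133 in Naïve. Its log2 fold change was 0.03 ± 0.19 (adjusted p = 0.924), while both IFNγ and αCD3 were above Naïve, by 1.40 and 1.37 (adjusted p = 0.00132 and 0.000337). Tnf, an inflammatory cytokine, was also above Naïve with both, at 43.5, 35.5 and 40.7 CPM with IFNγ, 30.9, 41.4 and 36.6 with αCD3 and 15.1 to 17.0 in Naïve.

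Inhibitory receptors were split between the stimuli, with 4 of 8 lower and 1 higher with IFNγ, or 2 higher without IFNγ replicate 1. Lag3, a receptor for class II, was at 17.4, 25.9 and 26.1 CPM with IFNγ, 101, 151 and 144 with αCD3 and 9.65 to 15.6 in Naïve (-2.51 ± 0.25, adjusted p = 3.93e-05). Tigit and Ctla4 were lower by 0.82 and 0.60 on the log2 scale. Cd274, which encodes the ligand PD-L1, was the one that was higher, at 551, 568 and 587 CPM with IFNγ, 157, 270 and 245 with αCD3 and 91.7 to 154 in Naïve (1.35 ± 0.29, adjusted p = 0.00425). Its partner Pdcd1 (PD-1) was lower, at 19.6, 21.8 and 24.9 CPM against 27.6, 32.5 and 31.6 (adjusted p = 0.0234), a call that was lost without αCD3 replicate 2 or 3 or IFNγ replicate 1 or 2 (adjusted p of 0.0644 to 0.0811).

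**Figure D4:**
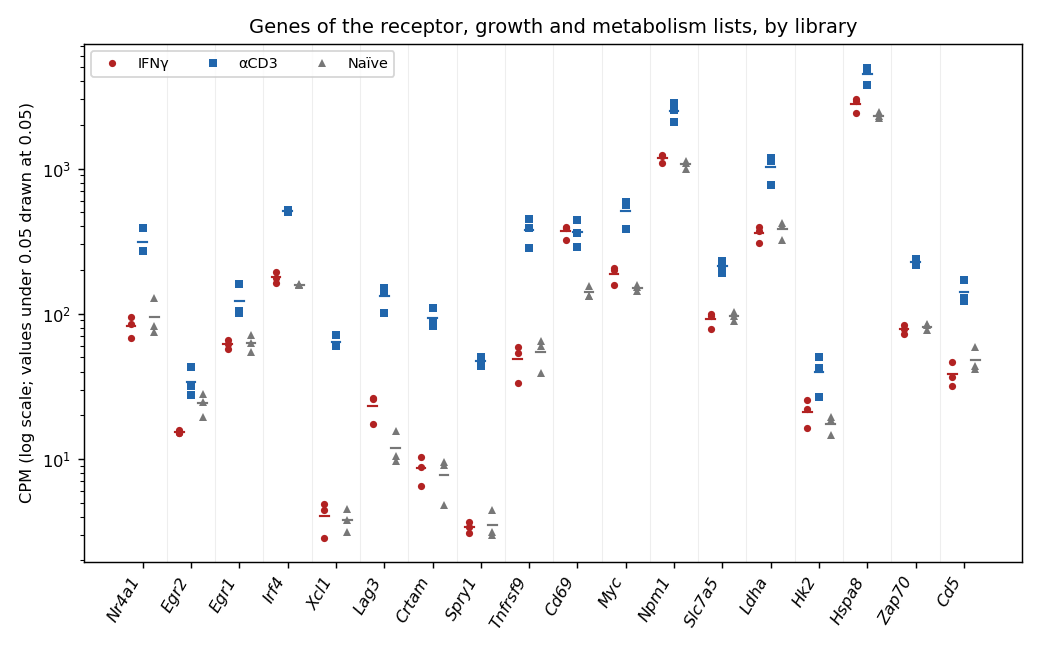
Expression in CPM (vertical axis, log scale) of 18 genes of the receptor, growth and metabolism lists in the 3 IFNγ (red circles), 3 αCD3 (blue squares) and 3 Naïve (grey triangles) libraries, with short lines for group means. For Irf4, Spry1 and Zap70 the IFNγ and Naïve points lie together below αCD3, and for Cd69 the points of both stimuli lie together above Naïve.

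T cell cytokines were low at this time and 2 of 12 were called, both lower with IFNγ, Xcl1 and lymphotoxin alpha (Lta). Lta was at 11.4, 10 and 14 CPM against 13.7, 22.7 and 20.4, so that the groups overlapped (adjusted p = 0.0359), and its call was lost without αCD3 replicate 2 or 3 or IFNγ replicate 1 or 2 (0.0849 to 0.131), with the 6 compared libraries alone (0.0556) and with limma-voom (0.086). Without αCD3 replicate 1, 4 were lower, and with the block 4 were lower and 1 higher. Ifng itself was at 1.94, 3.98 and 5.07 CPM with IFNγ and 4.34, 40.6 and 31.2 with αCD3. The groups overlapped, αCD3 replicate 1 being low, and the gene was not called (-2.77 ± 1.21, adjusted p = 0.0987), but it was called with the replicate block (0.0201), with DESeq2 (0.0269) and without αCD3 replicate 1 (0.0453) or LPS replicate 1 (0.0183). Il2 was at 3.4, 5.4 and 10 CPM against 4.65, 4.38 and 6.6 and was not called.

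Cytotoxic granule genes gave 4 lower and 1 higher of 16, with a median of 0.05. Nkg7, a granule membrane protein, was at 22.2, 35.3 and 33.3 CPM with IFNγ, 81.2, 133 and 114 with αCD3 and 28.3 to 37.5 in Naïve (-1.85 ± 0.25, adjusted p = 0.000242). Granzyme B (Gzmb) was at 19.9, 73.4 and 65.8 CPM with IFNγ and 54.2, 561 and 422 with αCD3, so that αCD3 replicate 1 lay within the IFNγ range (-2.70 ± 0.88, adjusted p = 0.0332). Its call was lost without αCD3 replicate 2 or 3 or any IFNγ library (adjusted p of 0.0624 to 0.108), and also with the 6 compared libraries alone (0.0659), no count filter (0.0667) and limma-voom (0.0901). Perforin (Prf1) was at 1.38 to 3.21 CPM against 3.81 to 4.67 and was not called (adjusted p = 0.198). With the replicate block 4 were higher, and 3 were without IFNγ replicate 1. The number lower was 2 without αCD3 replicate 2, IFNγ replicate 1 or IFNγ replicate 3.

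Of 16 genes of the receptor complex and its proximal signalling, 8 were lower and 1 was higher with IFNγ (median -0.25). Zap70, the kinase recruited to the phosphorylated receptor, was at 83.2, 73.0 and 77.9 CPM with IFNγ, 240, 217 and 223 with αCD3 and 83.1, 76.9 and 84.6 in Naïve (-1.54 ± 0.08, adjusted p = 2.37e-06). Cd8a was lower by 0.83 ± 0.17 and Cd3e by 0.47 ± 0.08, while Cd8b1 and Cd3d were not called (-0.08 ± 0.12 and -0.11 ± 0.08). Cd247, the zeta chain, was higher with IFNγ at 263, 227 and 250 CPM against 174, 161 and 176. Several of these genes are also among the T cell markers summed above, so that a difference in the share of T cells and one in the level per cell cannot be told apart for them.

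Feedback and calcium-NFAT genes gave 7 lower and 3 higher of 16. The phosphatases Dusp2 and Dusp5, which switch off ERK, were lower by 1.21 ± 0.19 and 0.99 ± 0.14 on the log2 scale, beside Spry1. Dusp10, a phosphatase of JNK and p38, was higher with IFNγ at 110, 131 and 159 CPM, against 57.1, 37.4 and 60.8 with αCD3 and 157, 200 and 237 in Naïve. It thus fell from Naïve with αCD3 (log2 fold change over Naïve -1.93, adjusted p = 8.75e-05). Without αCD3 replicate 2 or 3, 1 of the 16 was higher. NF-κB subunits and inhibitors were close to equal, with 4 lower, 2 higher and a median of -0.06 over 11, and the NF-κB target and inhibitor Nfkbia at 259, 223 and 252 CPM against 258, 234 and 226. The 2 higher, Nfkbie and Bcl3, were not called without IFNγ replicate 2 or 3, αCD3 replicate 1 or Naïve replicate 3 (adjusted p of 0.0503 to 0.113) or with no count filter (0.0575 and 0.0567), and at least 1 of them was lost under 6 further settings. Among 12 effector transcription factors 3 were lower (Irf4, Bhlhe40 and Tox) and 2 higher, Runx3 and Ikzf2, or 4 higher with the replicate block. The calls of Runx3 and Ikzf2 were lost without αCD3 replicate 1 or 3 or IFNγ replicate 2 or 3 (adjusted p of 0.0636 to 0.172) and with no count filter (0.0527 and 0.0668), that of Ikzf2 under 8 further settings, and that of Tox without αCD3 replicate 3 or IFNγ replicate 2 (0.0636 and 0.069). Tbx21, the factor T-bet, was not called (0.51 ± 0.63).

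Nearly all genes of the growth programme were higher with αCD3. Of 24 Myc and ribosome biogenesis genes, 23 were lower with IFNγ and none higher (median -1.18), and 22 or 23 were lower without any single library. Myc was at 157, 199 and 206 CPM with IFNγ, 384, 584 and 557 with αCD3 and 144, 159 and 152 in Naïve (-1.44 ± 0.15, adjusted p = 4.38e-05). Rrp12, an export factor of ribosomal subunits, was lower by 1.64 ± 0.08, Polr1b, a subunit of RNA polymerase I, by 1.52 ± 0.10, and Fbl, the methylase fibrillarin, by 1.33 ± 0.10 on the log2 scale. Utp20, whose promoter is shown above, was at 75.9, 82.8 and 78.9 CPM with IFNγ and 191, 243 and 215 with αCD3. The member not called was Nolc1, with values of 0 in 5 of the 9 libraries. Over Naïve the list's medians were 0.03 for IFNγ and 1.25 for αCD3.

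Nutrient uptake and metabolism followed. Of 10 amino acid transporters, 7 were lower with IFNγ and none higher (median -0.64), while 1 was higher with the replicate block. The leucine carrier Slc7a5 was at 77.9, 99.9 and 97.2 CPM with IFNγ and 190, 232 and 217 with αCD3 (-1.22 ± 0.11, adjusted p = 1.8e-05), and the glutamine carrier Slc1a5 at 243, 208 and 201 against 529, 474 and 460. Of 15 glycolytic genes, 11 were lower and 1 was higher (median -0.69). Ldha, lactate dehydrogenase A, was at 308, 369 and 397 CPM with IFNγ and 766, 1170 and 1130 with αCD3 (-1.52 ± 0.19), and hexokinase 2 (Hk2) at 16.3, 21.9 and 25.4 against 26.6, 50.2 and 42.0. Hexokinase 1 (Hk1) was the one that was higher, at 132, 170 and 158 CPM with IFNγ, 81.4, 95.6 and 88.9 with αCD3 and 77.1 to 92.6 in Naïve (0.79 ± 0.13, adjusted p = 0.000893). The glucose transporter Slc2a1 was at 46.2, 45.6 and 48.8 CPM against 45.6, 46.8 and 47.8.

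Cholesterol synthesis and uptake genes were lower with IFNγ than with αCD3, and some were lower than in Naïve. Of 16 tested, 15 were lower with IFNγ and none higher (median -0.47), 10 to 15 as single libraries were left out. Over Naïve the medians were -0.38 for IFNγ and 0.10 for αCD3. Sqle, squalene epoxidase, was at 71.4, 73.2 and 67.8 CPM with IFNγ, 123, 124 and 111 with αCD3 and 94.9, 115 and 110 in Naïve, and fell below Naïve with IFNγ (log2 fold change over Naïve -0.59, adjusted p = 0.0168). Cyp51, the lanosterol demethylase, was at 95.6, 105 and 101 CPM with IFNγ, 183, 199 and 176 with αCD3 and 127, 162 and 147 in Naïve, and fell by 0.53 on the log2 scale (adjusted p = 0.00874).

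Chaperones were lower with IFNγ in 14 of 15 cases (median -0.73). The mitochondrial chaperonin Hspd1 was at 188, 261 and 250 CPM with IFNγ and 442, 703 and 636 with αCD3 (-1.35 ± 0.19, adjusted p = 0.000314), and Hsp90ab1 at 1920, 2030 and 2170 against 3440, 4350 and 4150. All 6 tested subunits of the cytosolic chaperonin named Cct, and Tcp1, were among them. Of 21 cell cycle genes, 10 were lower and 3 higher (median -0.35), 6 being lower without IFNγ replicate 2. Cdk4 was at 115, 130 and 144 CPM with IFNγ and 213, 292 and 270 with αCD3 (-0.99 ± 0.13), and the inhibitor Cdkn1b (p27) went the other way, at 293, 230 and 220 against 161, 102 and 108 (1.00 ± 0.19). Cyclin D2 (Ccnd2) was above Naïve with both stimuli and not called between them (-0.41 ± 0.32, adjusted p = 0.35), with an adjusted p of 0.0149 under the block.

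Genes of the resting state were mostly higher with IFNγ than with αCD3. Of 18 quiescence and homing genes, 11 were higher with IFNγ and none lower (median 0.62), or 13 higher and 1 lower with the replicate block. Il7r, the receptor for the survival cytokine IL-7, was at 292, 243 and 247 CPM with IFNγ, 331, 265 and 249 in Naïve and 89.5, 50 and 53.6 with αCD3 (2.01 ± 0.26, adjusted p = 0.000183). S1pr1, the receptor for egress from lymphoid organs, was at 460, 345 and 349 CPM with IFNγ and 264, 110 and 143 with αCD3 (1.16 ± 0.28), and Txnip, an inhibitor of glucose uptake, at 870, 689 and 627 against 394, 253 and 254 (1.28 ± 0.19). Klf2, the factor that drives S1pr1, was higher by 0.77 ± 0.22 (adjusted p = 0.0183), a call that was lost without αCD3 replicate 2 or 3 or IFNγ replicate 1 (0.0628 to 0.0694). Over Naïve the list's medians were -0.08 for IFNγ and -0.69 for αCD3.

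The transcription factors Tcf7, Foxo1 and Satb1 and the homing receptor Ccr7 were not called, with log2 fold changes of -0.15 to 0.12. Of 8 Gimap genes, GTPases of lymphocyte survival clustered on chromosome 6 (48647234 to 48770851), 6 were higher with IFNγ and none lower (median 0.52). Gimap4 was at 1030, 853 and 897 CPM with IFNγ, 580, 572 and 586 with αCD3 and 552 to 624 in Naïve, and rose over Naïve with IFNγ (0.65, adjusted p = 0.0113). Gimap3 was at 146, 146 and 132 CPM with IFNγ, 82.6, 73.5 and 83.5 with αCD3 and 113 to 125 in Naïve, and was above Naïve with IFNγ and below it with αCD3 (0.26 and -0.56, adjusted p = 0.0404 and 0.000222).

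Among survival genes of the Bcl2 family, 2 of 12 were higher and 3 lower. Mcl1 was higher with IFNγ, at 1050, 1080 and 983 CPM against 757, 653 and 693 (0.56 ± 0.07, adjusted p = 9.22e-05), and Bcl2l1, which encodes Bcl-xL, was lower, at 33.2, 39.3 and 51.7 against 65.8, 97.3 and 91.4 (-1.03 ± 0.19, adjusted p = 0.00152). The death effector Bax was lower as well (-1.09 ± 0.15). With the replicate block 4 were higher and 5 lower. Of 7 receptors of the common gamma chain family, Il7r and the shared chain Il2rg were higher, the latter at 662, 770 and 765 CPM with IFNγ, 558, 585 and 574 with αCD3 and 454 to 493 in Naïve (0.36 ± 0.07, adjusted p = 0.00324).

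**Figure D5:**
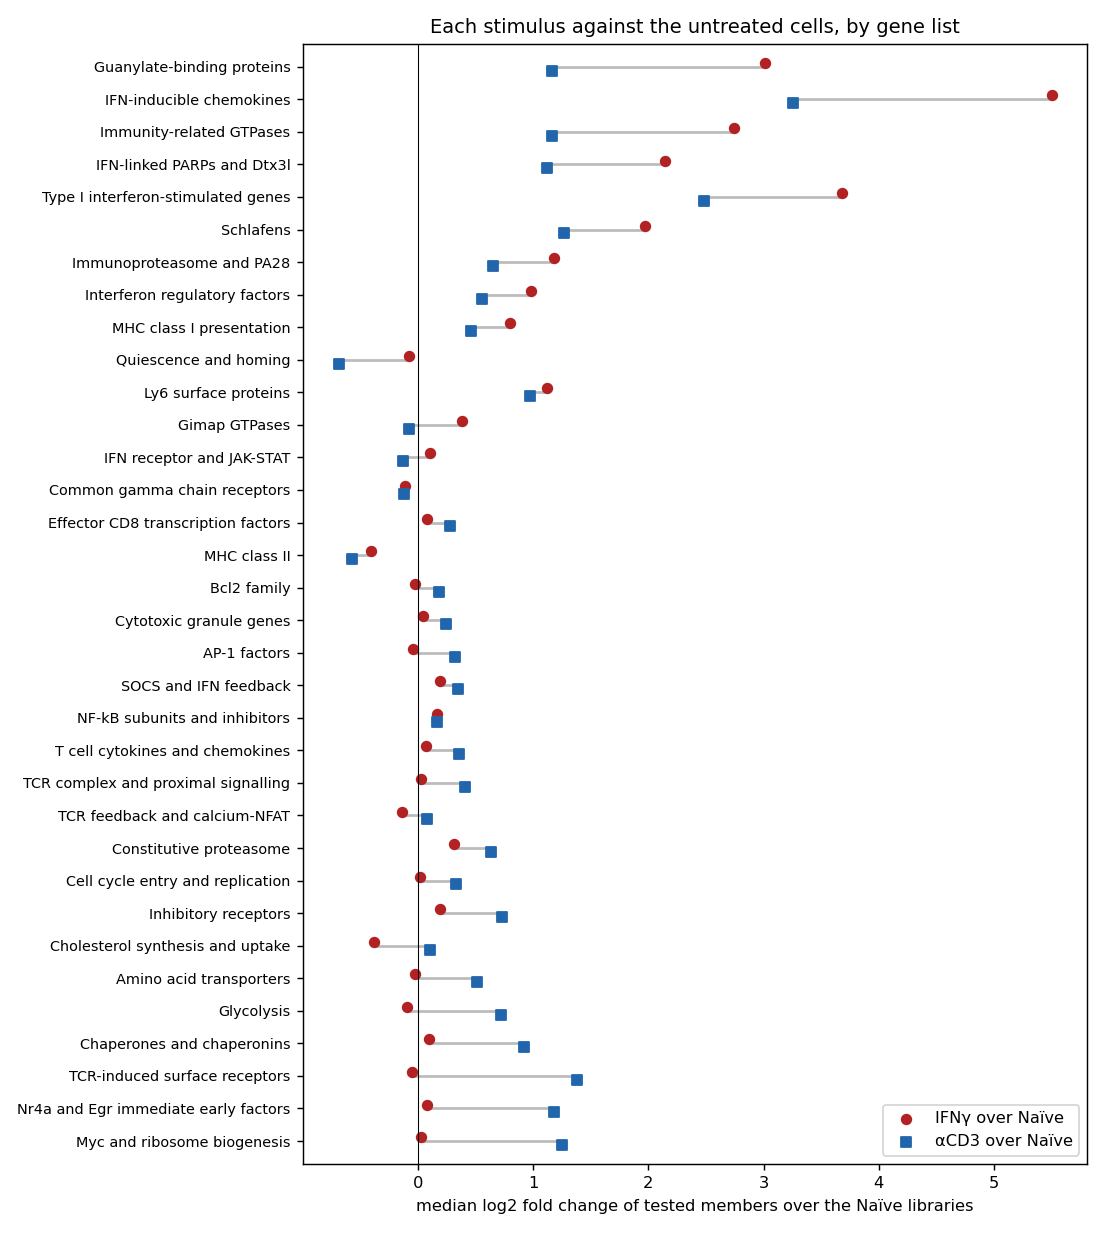
Median log2 fold change over the Naïve libraries of the tested members of 34 gene lists for IFNγ (red circles) and αCD3 (blue squares), in the order of their IFNγ over αCD3 medians. Both stimuli share the Naïve libraries. Both GTPase lists lie right of 0 for both stimuli, with IFNγ further out (3.01 against 1.16 for guanylate-binding proteins), and for the Myc list IFNγ lies at 0.03 and αCD3 at 1.25.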

How the data were processed

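The 12 RNA-seq libraries of splenic CD8 T cells (Naïve, αCD3, IFNγ and LPS, 3 each) were used as deposited. The deposited values are expected counts per gene (kallisto estimates that need not be whole), which the authors made from reads set against mm10. The submitters' processing notes name DESeq2 1.24.0, while the kallisto version and transcript annotation are not given in the sources used here. Expected counts were rounded to whole numbers, scaled by TMM and tested with edgeR 4.0.16 (quasi-likelihood F-test, R 4.3.3) in a single fit of all 12 libraries with group as the term, after the edgeR filter on low counts. Adjustment was by Benjamini-Hochberg over the 12122 genes kept, with 0.05 as the threshold for a call. The SE is the log2 fold change divided by the square root of F, and CPM use TMM-scaled library sizes. Genes at 0 in a group were bounded with a floor of 3 counts per library.

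Same-numbered IFNγ and αCD3 libraries deviated together from their group means (correlations of 0.399, 0.15 and 0.17 for numbers 1 to 3). Between IFNγ replicate 2 and αCD3 replicate 3 the correlation was 0.085, and between IFNγ replicate 3 and αCD3 replicate 2 it was 0.101. Deviations within a group cancel out, so agreement of number 1 alone also raises the values among numbers 2 and 3. These correlations therefore cannot show that the numbers pair the samples, and the labels do not state it. Alternatives were a replicate block, the 6 compared libraries alone, library size or DESeq2 size factors for scaling, no filter, DESeq2 1.42.0, limma-voom (limma 3.58.1) and leaving out each library. Leaving out replicate 1 of all groups was added after the data were seen. By rule, the text names the 12 called genes of largest fold in each direction (groups apart, predicted-gene symbols left out, and the higher mean not under 5 CPM), the 6 of largest difference in mean CPM in each direction, up to 5 called members of each list and a set of anchor genes such as Irf1, Cd69 and Myc. Further list members were named after their values were seen. Some genes that the rule names are not reported here. The comparison, the lists and their members were chosen with earlier results of these data known. Gene positions are from GENCODE M21 (GRCm38).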

Additional observations from a re-analysis of the deposited data

How the results depend on the processing

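With the replicate number as a block, 6020 genes were called, and 4503 of the 4514 genes called without it were among them. The block took the call from Cep170 (adjusted p = 0.0553) and gave one to Ifng (0.0201) and Ccnd2 (0.0149). It changed no other call among the 191 genes followed with the block. These do not include Cxcl10, Cxcl11 and other uncalled list members, whose calls with the block are in the counts given with some of the lists. Among lists without such a count above, the block called 6 receptor and JAK-STAT genes higher and 1 lower. It called 13 cell cycle genes lower and 4 higher, and 9 genes of the receptor complex and proximal signalling lower and 2 higher. The number called was 3882 with the 6 compared libraries alone, 4335 with library size as the only scaling, 4500 with DESeq2 size factors, 4153 without a filter, 4657 with DESeq2 and 4470 with limma-voom. Leaving out a library gave 3462 (without αCD3 replicate 3) to 4692 (without LPS replicate 1), and leaving out replicate 1 of all 4 groups, a choice made after the data were seen, gave 5540. No called gene changed sign under these settings. Called lower in the constitutive proteasome were 11 with the block and 11 without replicate 1 of all groups, and single libraries left out gave 4 to 8. Interferon-linked PARP genes called higher were 2 with the 6 libraries alone, 3 without a filter and 2 to 6 with a library left out. Cytotoxic granule genes called lower were 2 with the 6 libraries alone and 2 with limma-voom, and 2 to 5 with a library left out. Cell cycle genes called lower were 6 to 10 with a library left out. The median of the T cell cytokine list changed sign, to 0.02, without αCD3 replicate 3 and, to 0.02, without IFNγ replicate 1. Over all libraries left out singly it lay between -0.60 and 0.02. The cause of these changes was not tested. Genes at a few CPM, such as Il2, rest on few counts in these libraries.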
